A study of Mus musculus with 4 samples.

Results

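The enzymes that break down the branched-chain amino acids valine, leucine and isoleucine, together with those of propionate and ketone body use, were followed in mouse bone marrow stromal cells (mBMSCs). The set held 29 genes, chosen by symbol from the 47069 gene identifiers of the deposited table, and all 29 were found and were abundant enough to be tested. Wild-type C57BL/6J mBMSCs were taken from the long bones of mice aged 8 weeks and used at passage P1. At confluence they were kept for 3 d either in ginkgolic acid (GA, 50 μM, a sumoylation inhibitor) plus dexamethasone (DEX, 1 μM, a synthetic glucocorticoid) or in the solvent DMSO plus DEX. Both groups thus received DEX, and no library without it was analysed here. The paper states that inhibition of histone acetyltransferase by GA has been reported as well. There were 2 libraries per group, and whether these stem from different animals or dishes is stated nowhere. The p-values therefore cover the spread among libraries alone, which may be technical.

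Branched-chain amino acids are broken down in mitochondria in a common order. A transaminase (BCAT) first removes the amino group, and the branched-chain ketoacid dehydrogenase complex (BCKDH) then makes the step that cannot be undone, held in check by a kinase (BCKDK) and released by a phosphatase (PPM1K). The routes then part: leucine ends as acetyl-CoA and the ketone body acetoacetate, valine as propionyl-CoA, and isoleucine as both acetyl-CoA and propionyl-CoA. In fat cells this breakdown is known to increase during differentiation and to feed carbon into fatty acid synthesis.

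The table gives FPKM, a read density that is divided by gene length and by the library's total. The values rested on 21559951 to 31069538 reads per library, a number recovered from the values themselves, and the least abundant of the 29 genes had at least 31 reads in every library. Because FPKM is a proportion, a few very abundant transcripts can lower all others. The 10 genes with the most reads took 22.7% to 24.0% of the reads with DMSO and 12.5% to 13.6% with GA. Over all genes tested the median log2 change toward GA plus DEX was 0.19. Changes are therefore given as deposited and, where a call differs, also after the log values of all libraries were shifted to the same median. The 2 groups also differed in cell markers, with calls made at an adjusted p under 0.05 by limma. Of all genes tested, 46.3% were called higher and 11.9% lower. The summed FPKM of 10 adipocyte markers was 42.9 and 44.8 with DMSO and 5316 and 4614 with GA, and all 10 were called higher. For 10 macrophage markers it was 2763 and 2510 against 3830 and 3253 (9 called higher), and for 8 osteoclast markers 304 and 289 against 933 and 871 (7 called higher). For 8 osteoblast markers it was 18707 and 19609 against 11176 and 11799 (7 called lower, and Sost at 0 in every library). For 10 stromal cell markers it was 50723 and 46537 against 20433 and 24209, mostly Col1a1 (4 called higher, 4 lower), while Thy1 stayed under 1 FPKM in every library. For 5 endothelial markers it was 1.697 and 1.673 against 5.93 and 3.85, and the 2 tested, Pecam1 and Cdh5, were called higher. All 5 erythroid and all 6 lymphocyte markers were under 1 FPKM, and Cd8a and Ms4a1 were at 0. The part of these shifts in the results below was not tested, and in bulk RNA more cells of one type and more RNA per cell cannot be told apart.

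Transcripts of the pathway were more abundant in GA plus DEX almost throughout. Of the 29 genes, 26 rose, none fell and 3 did not pass, at an adjusted p under 0.05 by limma over all 12174 genes tested. Among all genes tested 46.3% were called higher and 11.9% lower. The median log2 fold change of the set was 0.66, against 0.19 for all genes. After the shift to a shared median 21 of the 29 were called higher and 2 lower (19.5% and 27.9% of all genes), with a median of 0.43 against -0.04. At an unadjusted p under 0.05, 1 of the 29, Bckdk, was lower, and limma's voom on recovered reads also called 1 lower. The 2 GA libraries lay above both DMSO libraries for 27 genes and below both for the other 2, Bckdk and Bdh1. The groups thus overlapped for none of the 29. Of all genes tested, 62.5% had both GA libraries above both DMSO libraries and 18.3% had both below. Changes ran from -0.18 for Bdh1 to 2.08 for Aldh6a1 on the log2 scale. Summed over the set, FPKM was 1132 and 1142 with DMSO and 1825 and 1732 with GA. The plot of FPKM by library shows each change beside the spread of the replicates.

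**Figure D1:**
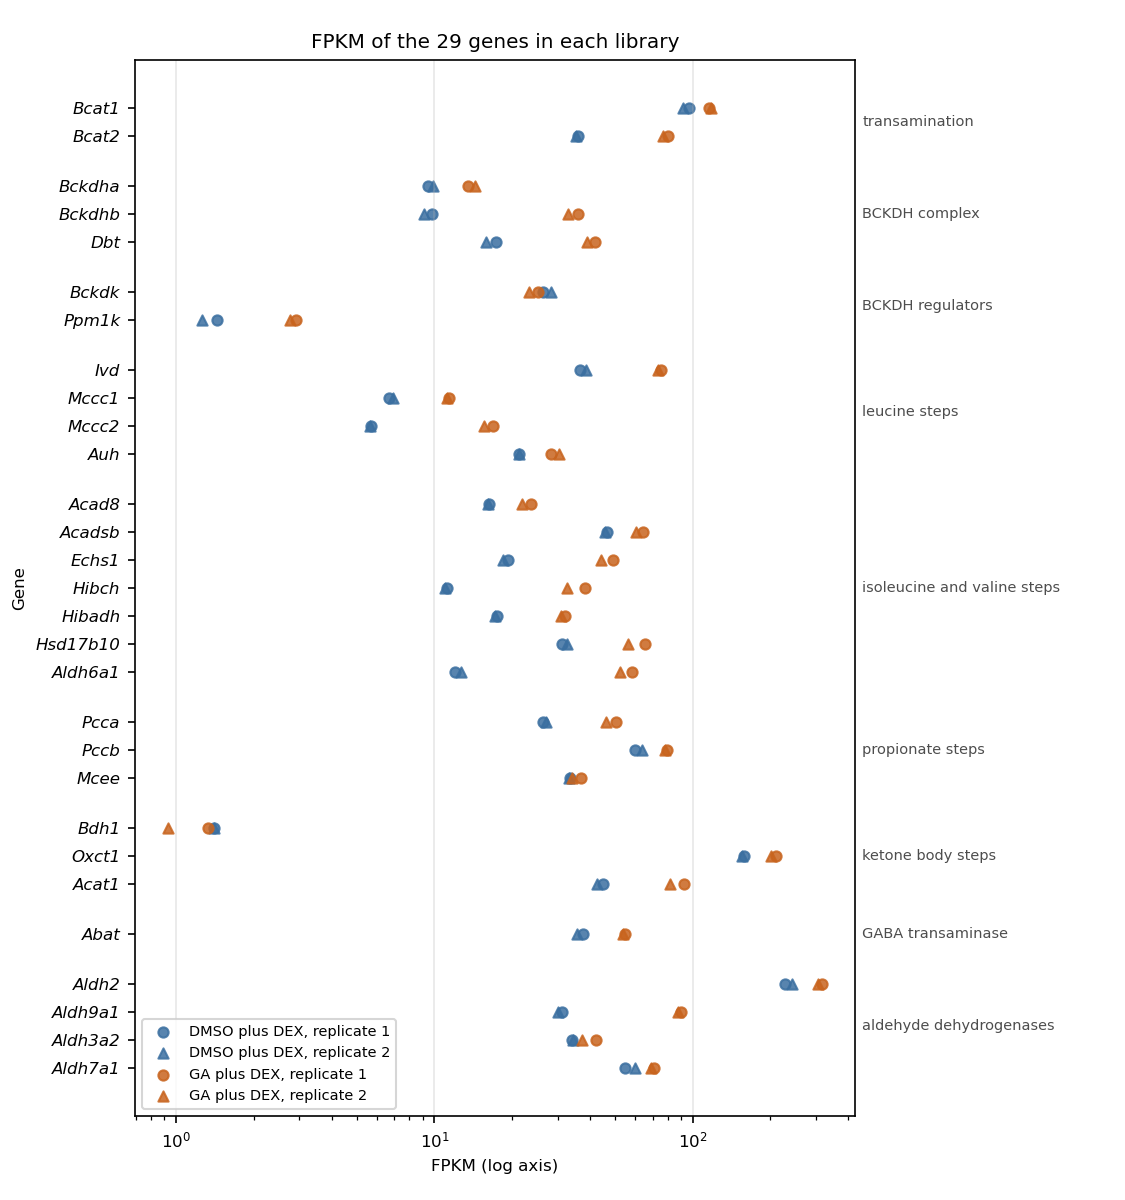
FPKM (log axis) of the 29 genes, ordered by their step in the pathway, with 1 point per library (blue, DMSO plus DEX; orange, GA plus DEX; circle, replicate 1; triangle, replicate 2). Both GA points lie to the right of both DMSO points for 27 genes, and to the left for Bckdk and Bdh1.

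The transaminase genes moved unequally. Bcat1 (ENSMUSG00000030268), the cytosolic enzyme, had 96.8 and 91.6 FPKM with DMSO and 115 and 117 with GA. Bcat2 (ENSMUSG00000030826), the mitochondrial enzyme, had 36.0 and 35.4 FPKM with DMSO and 80.5 and 76.7 with GA. Both GA libraries exceeded both DMSO libraries for each gene, but the step was small for Bcat1 and more than a doubling for Bcat2. Bcat2 rose 2.203-fold (log2 fold change 1.12 and SE 0.05, adjusted p of 3.46e-06 from limma). Bcat1 rose 1.23-fold (log2 fold change 0.30, adjusted p = 0.00275 from limma), a change that did not pass after the shift to a shared median (0.07, adjusted p = 0.365 from limma). The ratio of Bcat2 to Bcat1 was 0.372 and 0.386 with DMSO and 0.699 and 0.654 with GA, so the cytosolic form stayed the more abundant transcript in all 4 libraries.

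The dehydrogenase complex rose as well, its subunits by different amounts. Bckdhb (ENSMUSG00000032263), the beta subunit of the decarboxylase, had 9.80 and 9.08 FPKM with DMSO and 36.0 and 33.0 with GA. This 3.66-fold rise was the second largest of the 29 by log2 fold change (1.77, with an SE of 0.07, adjusted p of 1.10e-06 from limma), and 1.97% of all genes tested had a larger one. Dbt (ENSMUSG00000000340), the transacylase core of the complex, went from 17.2 and 15.8 FPKM to 41.7 and 38.9, or 2.44-fold (adjusted p = 6.11e-06 from limma). Bckdha (ENSMUSG00000060376), the alpha subunit that carries the regulatory phosphorylation, went from 9.45 and 9.89 FPKM to 13.4 and 14.3, or 1.44-fold (adjusted p = 6.89e-04 from limma). The 3 subunit genes also passed after the shift to a shared median. The alpha and beta subunits had near-equal FPKM with DMSO, at a ratio of 0.965 and 1.09, and the ratio was 0.373 and 0.434 with GA. In the annotation GENCODE M21, 61.7% of the exon bases of Bckdha lie opposite B3gnt8, which had 2.47 and 2.27 FPKM with DMSO and 3.28 and 3.45 with GA. B3gnt8 was itself called higher (log2 fold change of 0.37, with adjusted p = 0.0103 from limma), though not after the shift (adjusted p = 0.256 from limma). Because the strand setting of the counting is not given, reads of the 2 genes cannot be told apart there.

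The regulators of the complex went apart. Ppm1k (ENSMUSG00000037826), the activating phosphatase, was scarce, at 1.43 and 1.26 FPKM with DMSO and 2.91 and 2.75 with GA, and rose 2.10-fold (log2 fold change 0.71, adjusted p = 9.12e-04 from limma). Bckdk (ENSMUSG00000030802), the inhibiting kinase, had 26.3 and 28.3 FPKM with DMSO and 25.1 and 23.3 with GA. Its GA libraries thus lay just below its DMSO libraries, and the change did not pass as deposited (log2 fold change -0.17 and SE 0.07, adjusted p of 0.0603 from limma). After the shift to a shared median Bckdk was called lower (-0.40, adjusted p = 0.00136 from limma), and over all alternatives its adjusted p from limma ranged from 3.91e-04 to 0.286. The ratio of Bckdk to Ppm1k was 18.3 and 22.4 with DMSO and 8.63 and 8.48 with GA, so the kinase transcript exceeded that of the phosphatase in all 4 libraries.

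Every gene of the later leucine steps rose. Ivd (ENSMUSG00000027332), isovaleryl-CoA dehydrogenase, had 36.6 and 38.5 FPKM with DMSO and 75.7 and 73.7 with GA, a rise of 1.99-fold (adjusted p = 7.53e-06 from limma). Mccc2 (ENSMUSG00000021646) and Mccc1 (ENSMUSG00000027709) encode the subunits of methylcrotonyl-CoA carboxylase, Mccc1 the one that carries biotin. Mccc2 went from 5.65 and 5.64 FPKM to 16.8 and 15.5, or 2.86-fold, and Mccc1 from 6.64 and 6.93 to 11.4 and 11.2, or 1.67-fold. The ratio of Mccc1 to Mccc2 therefore crossed 1, from 1.17 and 1.23 with DMSO to 0.680 and 0.723 with GA. Auh (ENSMUSG00000021460), methylglutaconyl-CoA hydratase, went from 21.2 and 21.2 FPKM to 28.4 and 30.2, or 1.38-fold (adjusted p = 5.45e-04 from limma). All 4 leucine genes passed after the shift to a shared median too. Of all genes tested, 46.3% were called higher as deposited and 19.5% after the shift.

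The isoleucine and valine steps held the largest rise of the set. Aldh6a1 (ENSMUSG00000021238), the methylmalonate semialdehyde dehydrogenase that ends valine breakdown, had 12.01 and 12.7 FPKM with DMSO and 58.4 and 52.3 with GA. It rose 4.48-fold (log2 fold change 2.08 and SE 0.07, adjusted p of 4.95e-07 from limma), and its rank by FPKM among the 29 genes went from 22 to 12. Hibch (ENSMUSG00000041426), the hydrolase of hydroxyisobutyryl-CoA in the valine route, went from 11.1 and 11.03 FPKM to 38.3 and 32.7, or 3.20-fold. Hibadh (ENSMUSG00000029776), the dehydrogenase that follows it, went from 17.5 and 17.1 to 31.9 and 31.0, or 1.82-fold. These valine genes act one after another, and each was separated from its DMSO values by far more than the replicates differed.

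Echs1 (ENSMUSG00000025465), the short-chain enoyl-CoA hydratase shared with fatty acid oxidation, rose 2.48-fold, from 19.3 and 18.3 FPKM to 49.1 and 44.2. Hsd17b10 (ENSMUSG00000025260), the dehydrogenase of the isoleucine route and also a subunit of mitochondrial RNase P, rose 1.91-fold, from 31.2 and 32.5 FPKM to 65.2 and 56.2. The acyl-CoA dehydrogenases that open the routes changed least of these 7 genes. Acad8 (ENSMUSG00000031969), which acts on the valine product, rose 1.40-fold, from 16.3 and 16.2 FPKM to 23.7 and 21.8 (adjusted p = 6.64e-04 from limma). Acadsb (ENSMUSG00000030861), which acts on the isoleucine product, rose 1.35-fold, from 46.6 and 45.6 FPKM to 64.4 and 60.1 (adjusted p = 6.57e-04 from limma). All 7 isoleucine and valine genes were called higher before and after the shift, where 46.3% and 19.5% of all genes tested were.

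The bases just upstream of the start of transcription are shown for the genes with the largest rises, Aldh6a1 and Bckdhb, and for Bckdk, which did not pass. RefSeq promoter windows of build GRCm38.p6 were found for 24 of the 29 genes, in 30 windows, and the 250 bases before each start were searched on both strands. For 24 of the 30 windows, the bases after the start lay in a GENCODE M21 transcript of the gene. Which start these cells use was not tested. The letters AGGTCA, the half-site of nuclear receptors such as PPARG, were present in 6 of the 30 windows (20%) and in 14.0% of all 32851 windows. The genes were Aldh6a1, Bckdhb, Bcat1, Ppm1k, Echs1 and Pcca. The longer TCAAGGTCA, which contains AGGTCA and is known for estrogen-related receptors, was in none of the 30 windows and in 0.387% of all. TTGCNNAA, letters bound by C/EBP factors, was in 1 (Acadsb; 9.56% of all windows), and GCGCATGC, known for NRF1, was in 1 (Pccb; 2.26%). A match is a description of letters only. For Aldh6a1 and Bckdhb the window shown is the one that holds AGGTCA, and the window of their other listed start has no match. The window of Hibch, the gene with the third largest rise, has none either. Capitals mark AGGTCA in the windows below, each written on the strand of its gene.
Aldh6a1 (chr12:84448318-84448567, minus strand, 1 of 2 listed starts): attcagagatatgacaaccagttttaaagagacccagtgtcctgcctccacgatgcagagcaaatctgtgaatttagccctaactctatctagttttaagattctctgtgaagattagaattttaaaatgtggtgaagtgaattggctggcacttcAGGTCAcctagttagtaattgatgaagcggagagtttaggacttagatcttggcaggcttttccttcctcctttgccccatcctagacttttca
Bckdhb (chr9:83924887-83925136, plus strand, 1 of 2 listed starts): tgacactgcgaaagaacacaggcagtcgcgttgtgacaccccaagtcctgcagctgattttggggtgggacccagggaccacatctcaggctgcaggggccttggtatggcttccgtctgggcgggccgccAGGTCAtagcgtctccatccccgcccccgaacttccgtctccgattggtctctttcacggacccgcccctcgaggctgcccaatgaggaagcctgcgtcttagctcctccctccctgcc
Bckdk (chr7:127903823-127904072, plus strand, the only listed start): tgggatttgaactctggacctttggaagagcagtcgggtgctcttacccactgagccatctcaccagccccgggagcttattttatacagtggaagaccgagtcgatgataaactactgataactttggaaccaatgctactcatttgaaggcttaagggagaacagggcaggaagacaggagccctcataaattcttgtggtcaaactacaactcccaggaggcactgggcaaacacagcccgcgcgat

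Of the 3 propionate genes, 2 rose and 1 did not pass. Pcca (ENSMUSG00000041650), the biotin-carrying subunit of propionyl-CoA carboxylase, had 26.2 and 26.9 FPKM with DMSO and 50.5 and 46.3 with GA, a rise of 1.82-fold (adjusted p = 2.98e-05 from limma). Pccb (ENSMUSG00000032527), its partner subunit, rose 1.27-fold, from 59.9 and 63.6 FPKM to 79.6 and 77.8 (adjusted p = 0.00151 from limma), but its log2 fold change of 0.11 after the shift did not pass (adjusted p = 0.112 from limma). The ratio of Pcca to Pccb went from 0.438 and 0.424 to 0.635 and 0.595. Mcee (ENSMUSG00000033429), methylmalonyl-CoA epimerase, had 33.5 and 33.1 FPKM with DMSO and 37.0 and 34.1 with GA, and its log2 fold change of 0.09 did not pass (adjusted p = 0.238 from limma), nor did that of -0.14 after the shift (adjusted p = 0.0913 from limma). Its replicates with GA differed by more than its lower GA value differed from DMSO. Mmut (ENSMUSG00000023921), the mutase that completes the route and is not among the 29, had 8.96 and 9.01 FPKM with DMSO and 16.9 and 17.0 with GA, a rise of 1.89-fold (adjusted p = 2.25e-05 from limma). It was named after its values were seen.

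Of the 3 ketone body genes, 2 rose and 1 did not pass. Acat1 (ENSMUSG00000032047), the mitochondrial thiolase that also ends isoleucine breakdown, rose 1.99-fold, from 45.1 and 42.7 FPKM to 92.8 and 81.6 (adjusted p = 3.12e-05 from limma). Oxct1 (ENSMUSG00000022186), the transferase that activates acetoacetate for use, was the second most abundant of the 29 genes in both groups, at 159 and 156 FPKM with DMSO and 211 and 201 with GA. Its rise was 1.31-fold, or 0.39 on the log2 scale (adjusted p = 8.22e-04 from limma). It did not pass after the shift (0.16, adjusted p = 0.0541 from limma). Bdh1 (ENSMUSG00000046598), which interconverts hydroxybutyrate and acetoacetate, was near the minimum of the test, at 1.40 and 1.40 FPKM with DMSO and 1.33 and 0.927 with GA. Its GA libraries differed between themselves more than the nearer one differed from DMSO, and the change did not pass (log2 fold change -0.18 and SE 0.13, adjusted p of 0.273 from limma), although Bdh1 was called lower after the shift (-0.41, adjusted p = 0.0357 from limma).

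The other aldehyde and amine enzymes ranged widely. Aldh9a1 (ENSMUSG00000026687), an aldehyde dehydrogenase of carnitine synthesis, rose 2.90-fold, from 31.2 and 30.05 FPKM to 89.8 and 87.8 (adjusted p = 6.57e-07 from limma), and its rank by FPKM went from 14 to 4. Aldh2 (ENSMUSG00000029455), the mitochondrial acetaldehyde dehydrogenase, was the most abundant of the 29 in both groups, at 229 and 242 FPKM with DMSO and 318 and 307 with GA, and rose 1.33-fold. Abat (ENSMUSG00000057880), the GABA transaminase, rose 1.48-fold, from 37.8 and 35.7 FPKM to 54.8 and 53.9. The smallest rises were those of Aldh7a1 (ENSMUSG00000053644), which acts in lysine breakdown, and Aldh3a2 (ENSMUSG00000010025), the fatty aldehyde dehydrogenase. Aldh7a1 went from 54.6 and 59.95 FPKM to 70.8 and 68.9, or 1.22-fold, and did not pass after the shift (adjusted p = 0.491 from limma) or without DMSO plus DEX replicate 1 (adjusted p = 0.0519). Aldh3a2 went from 34.1 and 34.3 FPKM to 42.2 and 37.4, or 1.16-fold (adjusted p = 0.0314 from limma). After the shift its log2 fold change was -0.02, and the call was also lost with no minimum FPKM, in limma without its trend, and without DMSO plus DEX replicate 1, DMSO plus DEX replicate 2 or GA plus DEX replicate 1 (adjusted p = 0.0808 to 0.144 from limma for these leave-outs).

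**Figure D2:**
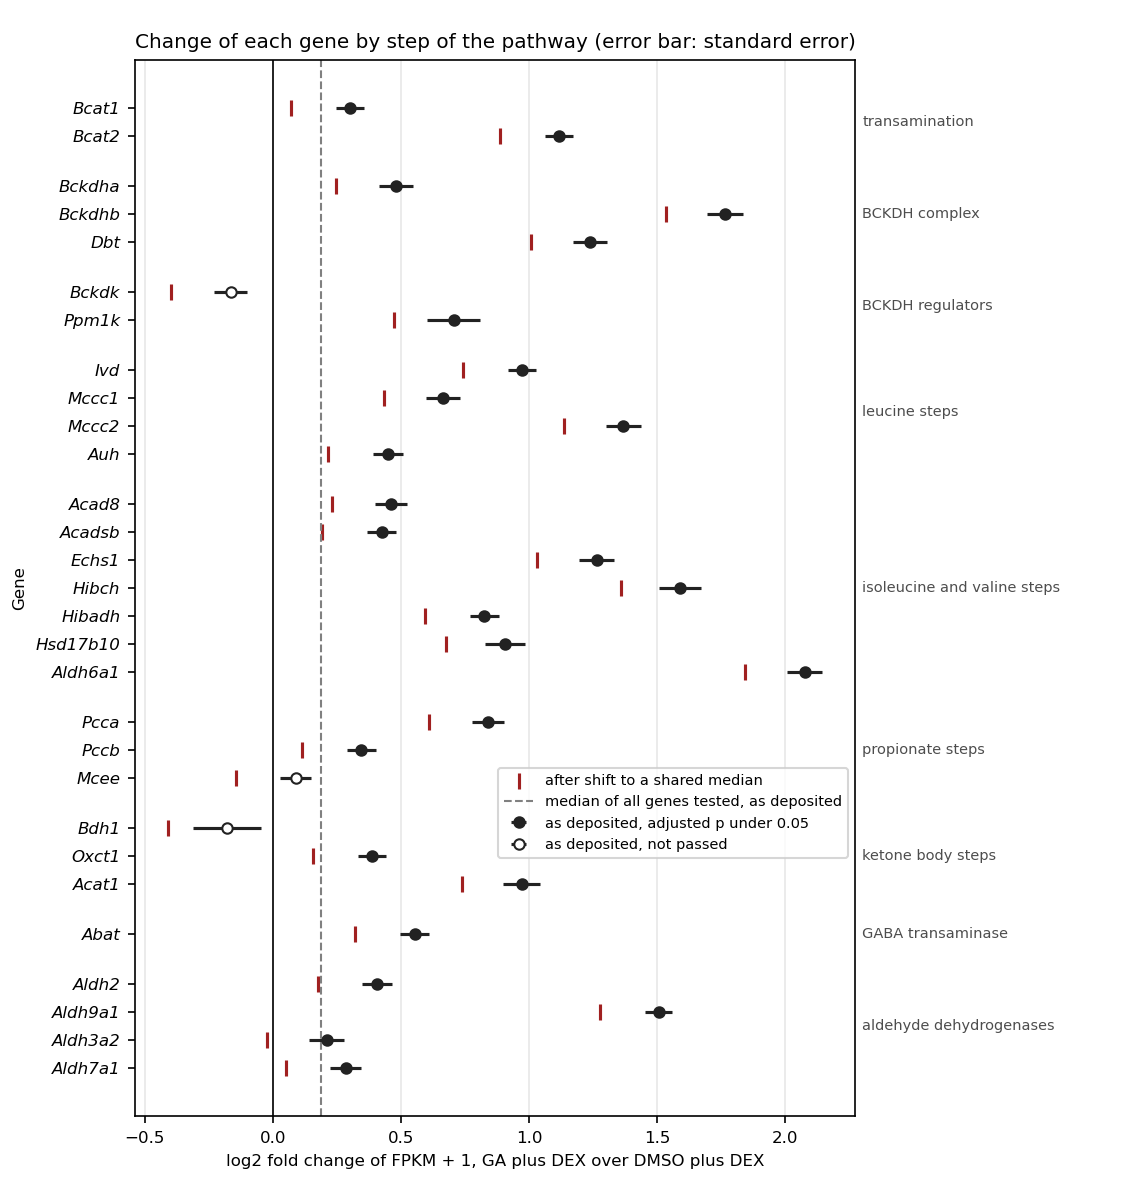
Log2 fold change of FPKM + 1, GA plus DEX over DMSO plus DEX, with its standard error from limma for each of the 29 genes (filled, adjusted p under 0.05; open, not passed), and the value after the shift to a shared median (red bars). Aldh6a1 (2.08), Bckdhb (1.77) and Hibch (1.59) lie farthest right, and after the shift Mcee (-0.14) and Aldh3a2 (-0.02) join Bckdk and Bdh1 to the left of 0.

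The first steps, transamination and BCKDH with its regulators (7 genes), were then set beside the 22 genes of later steps. Of the 7, 6 rose and 1 did not pass, with a median log2 fold change of 0.71 and a range of -0.17 to 1.77. Of the 22, 20 rose and 2 did not pass, with a median of 0.61 and a range of -0.18 to 2.08. Of all genes tested, 46.3% were called higher and 11.9% lower. The 2 ranges covered nearly the same values, as the plot beside all genes shows. The median of the 7 was that of the scarce gene Ppm1k, whose value depends on the pseudocount: with 5 in place of 1 the order turned, at 0.36 for the first steps and 0.49 for the later ones, and with 0.1 the medians were 1.02 and 0.65. Without the regulators, the 5 genes of transamination and the complex had a median of 1.12, and without Abat and the 4 other aldehyde dehydrogenases the 17 later genes had one of 0.83. This difference of 0.29 had the same sign in every alternative, from 0.28 to 0.33. Several alternatives, such as the shift, the replicate block and limma without its trend, cannot change it. The subset of 5 was not part of the planned comparison, and the 17 still held the 3 ketone body genes. The median of the 5 was that of Bcat2 alone, and Bcat1 (0.30) and Bckdha (0.48) lay below the median of the 17. After the shift to a shared median 5 of the 7 and 16 of the 22 were called higher, and 1 of each was called lower (Bckdk and Bdh1). Of all genes tested, 19.5% were then called higher and 27.9% lower. No test of the difference between the steps was made, since genes of a list are not replicates.

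**Figure D3:**
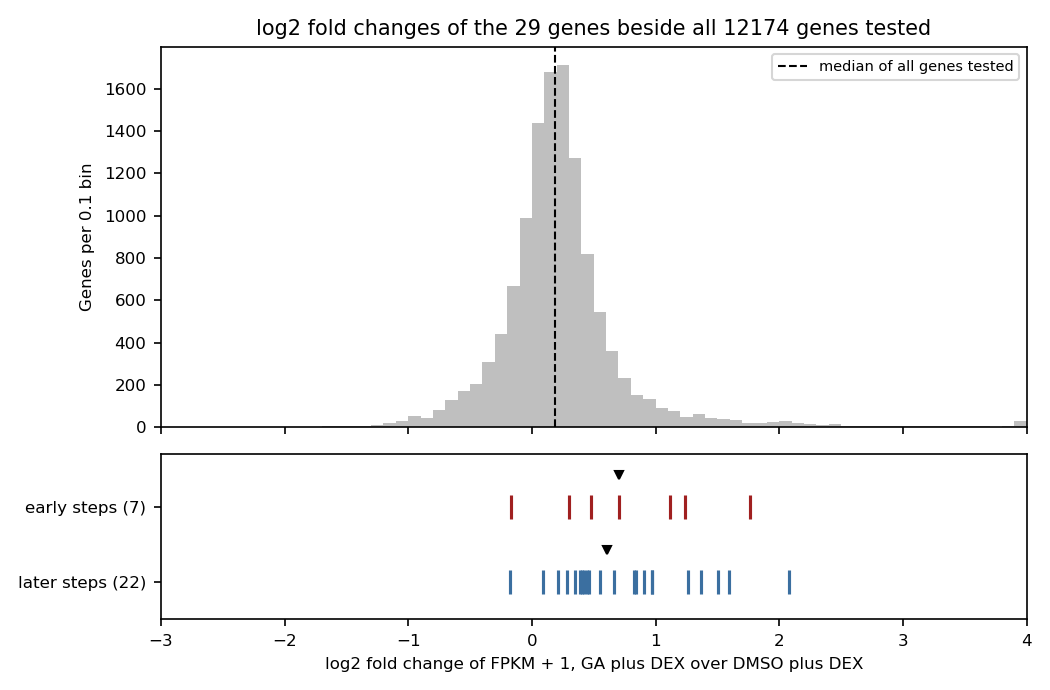
Histogram of the log2 fold changes of the 12174 genes tested (top; values past the ends are in the end bins; dashed line, median of 0.19) and the values of the 7 first-step and 22 later-step genes (bottom; triangles, medians of 0.71 and 0.61). Both sets lie mostly to the right of the median of all genes and span nearly the same range.

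Genes paired by enzyme or by step changed unequally. Bcat1 and Bcat2 encode separate enzymes, as do Bckdk and Ppm1k, while the other pairs encode subunits of an enzyme. In 5 pairs the ratio of FPKM in each library was compared, which does not depend on how the libraries are scaled. The ratio of Bckdha to Bckdhb was 2.54-fold lower with GA, that of Bckdk to Ppm1k 2.38-fold lower and that of Mccc1 to Mccc2 1.71-fold lower, while the ratio of Bcat2 to Bcat1 was 1.78-fold higher and that of Pcca to Pccb 1.43-fold higher. The groups did not overlap in any of the 5 pairs, but how many other pairs of genes separate in this way was not counted. Of all single genes tested, 62.5% had both GA libraries above both DMSO libraries and 18.3% had both below. With 2 libraries against 2, an exact two-sided permutation test cannot give a p below 0.333, so no test is reported.

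**Figure D4:**
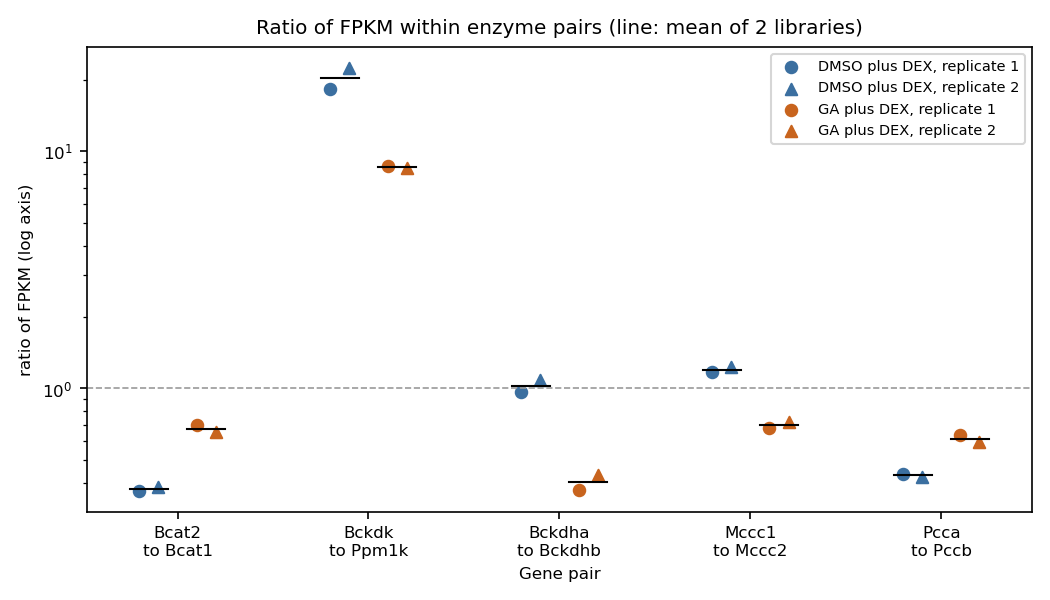
Ratio of FPKM (log axis) within 5 pairs of genes, with 1 point per library and a line at the mean of the 2 libraries of a group. The DMSO and GA points do not overlap in any pair, though other pairs of genes were not counted. Bckdk to Ppm1k stays far above 1 (18.3 and 22.4 with DMSO, 8.63 and 8.48 with GA).

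Most other genes of the same pathways, outside the 29, were higher too. Of 31 such genes 29 were tested, and 24 rose, 2 fell and 3 did not pass, where 46.3% of all genes were called higher and 11.9% lower. After the shift 17 were called higher and 5 lower, where 19.5% and 27.9% of all genes were. Dld (ENSMUSG00000020664), the dehydrogenase subunit that BCKDH shares with other complexes, rose 2.05-fold, from 30.02 and 30.5 FPKM to 64.6 and 59.6. The electron acceptors of the acyl-CoA dehydrogenases rose together: Etfa (ENSMUSG00000032314) 2.17-fold, Etfdh (ENSMUSG00000027809) 2.13-fold, and the scarce Etfb (ENSMUSG00000004610) from 1.80 and 1.97 FPKM to 6.79 and 4.78. Slc25a44 (ENSMUSG00000050144), the mitochondrial carrier of branched-chain amino acids, rose 1.94-fold, from 11.5 and 11.3 FPKM to 21.8 and 22.5. It was named after its values were seen.

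The 2 genes that fell were a transporter and a second ketone transferase. Slc7a5 (ENSMUSG00000040010), a large neutral amino acid transporter of the plasma membrane, fell from 33.9 and 34.1 FPKM to 19.0 and 22.4, or 1.64-fold (log2 fold change -0.70, adjusted p = 2.77e-04 from limma). Oxct2a (ENSMUSG00000076436), known from testis, fell from 2.38 and 3.00 FPKM to 1.13 and 1.62 (adjusted p = 0.00628 from limma). It has a close copy, Oxct2b, at under 0.1 FPKM, and the division of reads between them is uncertain.

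The medians of related mitochondrial pathways are given for comparison. All 14 genes tested of mitochondrial beta-oxidation rose, with a median log2 fold change of 1.11, as did all 17 of the citrate cycle, with a median of 0.63. After the shift the medians were 0.88 and 0.40, with 14 and 16 called higher, against a median of 0.43 for the 29 genes. Of all genes tested, 46.3% were called higher as deposited and 19.5% after the shift. The lists share no gene with the 29, and their difference was not tested.

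The replicates of the 29 genes agreed closely. The coefficient of variation between the 2 libraries had a median of 3.03% with DMSO and 4.91% with GA, and reached 25.3% for Bdh1 with GA. With GA, replicate 1 exceeded replicate 2 for 26 of the 29 genes, against 53.2% of all genes tested. Replicate 1 also exceeded replicate 2 for all 10 adipocyte, 9 of 10 macrophage, all 8 osteoclast and all 5 endothelial markers. It did so for 6 of 10 stromal cell markers and for only 1 of 8 osteoblast markers. The part of these markers in the difference was not tested. Leaving out a GA library could not reverse a called gene, because the groups overlapped for none of the 29, so kept directions are uninformative here. Sizes could move: the median log2 fold change was 0.68 without GA replicate 1 and 0.73 without GA replicate 2 for the first steps. For the later steps it was 0.60 and 0.62, and for Aldh3a2 alone the change was 0.13 and 0.30.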

How the data were processed

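For 4 mBMSC libraries, mRNA was enriched from total RNA with oligo(dT) beads and sequenced by a commercial service. The authors deposited FPKM values for 47069 Ensembl identifiers, 1 column per library, each matched to a sample by its title. TopHat2 2.0.12, Bowtie2 2.2.3, HTSeq 0.6.1 and build mm9 are listed, with no role, in the submitters' processing notes. Annotation, gene lengths and strandedness of counting were not given in the sources used here. Symbols came from GENCODE M21 (46488 identifiers matched), and Mmut was found under its older symbol Mut. As the annotation at hand is of GRCm38, no gene coordinates of the files are given, and the printed promoter windows are RefSeq's of GRCm38.p6.

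The test took the 12174 genes whose mean FPKM reached 1, on log2(FPKM + 1), which understates the change of scarce genes, with limma 3.58.1 in R 4.3.3 (intensity trend, two-sided, Benjamini-Hochberg over these genes). The paper gives an unpaired two-tailed test for its statistical results in general and no tool for the RNA-seq p-values. A fold is the ratio of mean FPKM values. Whole reads were recovered by finding, for each of the 23404 genes above 0, the shortest length that gives whole numbers within 0.0001 of a read in all 4 libraries. They are fixed only up to a common factor and are lower bounds. They served for depth, for voom and for the rescaling without the 10 most abundant genes. In simulated data for this comparison (11896 genes), 45 to 48 tested genes were changed at each fold size. Of those changed 1.25-fold 40.0% were recovered, of those changed 1.5-fold 85.4% and of those changed 2-fold 100%. But 14.5% of all calls fell on genes simulated without a change, more than the 5% intended. Far fewer genes were changed there than were called in the data, so this share need not hold for the data. The 29 genes and the lists were chosen with earlier results of these data known. All 29 are described, and of the other pathway genes the 5 largest rises and 5 largest falls that passed, except that some items are not reported here. Alternatives were other pseudocounts (0.1, 5) and minimums (none, 5), 3 scalings, limma without the trend, the thresholds of the paper, each library left out, a replicate block and voom. Plots used matplotlib 3.10.9.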

Additional observations from a re-analysis of the deposited data

How the results depend on the processing

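Of 433 recalculations of single genes of the 29 under the alternatives, 391 kept direction and side of the threshold, 30 lost the call, 7 gained one and 5 changed sign. For 16 of the 29 genes none of these alternatives altered the call or the direction. Sign changes were those of Mcee (-0.14 after the shift to a shared median, -0.13 with quantile normalization, -0.085 when the 10 most abundant genes were left out of the totals, -0.12 with voom) and Aldh3a2 (-0.022 after the shift), and neither gene was called where its sign changed. The number called lower among the 29 was 0 as deposited, 2 after the shift and with quantile normalization, and 1 without the abundant genes and with voom. Among the 7 first-step genes it was 1 in each of these 4 settings, and among the 22 later ones 1 after the shift and with quantile normalization. Leaving out each library gave 0 to 1 lower of the 29 and of the first steps (1, Bckdk, without GA plus DEX replicate 1, adjusted p = 0.0397 from limma). With the thresholds of the paper (unadjusted p under 0.05, log2 fold change past 0.5) 16 of the 29 were higher, 12 of them later steps. So were 15 of the other pathway genes, and 2051 of all 12174 genes tested.

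Other pathway genes called higher were 14 with a minimum of 5 FPKM, and those called lower were 1 with no minimum, 1 with a minimum of 5, 5 after the shift, 5 with quantile normalization, 4 without the abundant genes and 4 with voom. Over all genes the calls were 5639 higher and 1454 lower as deposited, 2380 and 3392 after the shift, 2394 and 3273 with quantile normalization, 3143 and 2619 without the abundant genes, 2931 and 3056 with voom, and 2051 and 552 with the thresholds of the paper. The median log2 fold change of the first steps less that of all genes was 0.52 as deposited, 0.81 and 0.24 with pseudocounts of 0.1 and 5, 0.64 with no minimum, 0.62 with a minimum of 5, 0.59 without the abundant genes, 0.84 with voom and 0.45 to 0.58 with 1 library left out. For the later steps it was 0.42 as deposited, 0.36 with a pseudocount of 5, 0.55 with no minimum and 0.48 with a minimum of 5. The cause of these movements was not tested, beyond the shift's own construction, which lowers every gene by the same amount.

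With the replicate number as a block, 26 of the 29 were higher and 0 lower, and no call among them changed. Over all genes the block gave 5528 higher and 1433 lower. Deviations of same-numbered libraries from their group means had a correlation of -0.025 across genes, and no label ties the numbers together, so the libraries were not treated as pairs. Depth limits Bdh1 (at least 31 reads per library) and Ppm1k most among the 29.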
